A study of Mus musculus with 29 samples.

Results

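Podocytes are the epithelial cells that cover the outside of the glomerular capillaries. Their interdigitating foot processes are joined by the slit diaphragm, a protein filter that keeps plasma proteins out of the urine, and damage to this layer is a known source of proteinuria in lupus nephritis. The genes described here were Nphs1 (nephrin, the main protein of the slit diaphragm), Podxl (podocalyxin, a negatively charged sialomucin of the foot process surface), Synpo (synaptopodin, an actin-associated protein of foot processes), Ptpro (a receptor tyrosine phosphatase of the podocyte membrane), Clic5 (a chloride intracellular channel family protein that links the membrane to the actin cytoskeleton) and Vegfa (the growth factor that podocytes send to the glomerular endothelium). Podxl is also made by endothelium and mesothelium, Clic5 by some endothelial cells and Vegfa by many cell types including tubular epithelium, whereas Nphs1 has no well known source in kidney other than the podocyte. They were chosen by name from a list of 7 podocyte genes, of which 6 were analysed among the 13982 genes of the table. Wt1 was not analysed here.

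All mice were (NZBxNZW)F1 (NZB/W), a lupus-prone cross with spontaneous anti-dsDNA antibodies and nephritis. From proteinuric mice there were 4 kidney libraries (mice H6, H20, H115 and H117, aged 39, 36, 25 and 32 weeks), 3 libraries of tertiary lymphoid structures (TLS), the immune aggregates dissected by hand from the kidneys of mice H6, H20 and H115, and 3 lymph node libraries (mice H6, H20 and H117). A further 3 lymph node libraries came from anti-dsDNA antibody-positive mice aged 28, 29 and 18 weeks and labelled with <5 weeks, and 1 lymph node library was labelled young (4 weeks). RNA of the antibody-positive nodes was isolated with another kit than all other RNA, and poly(A) RNA was sequenced on an Ion Torrent PGM. The kidney of mouse H117 has no TLS library, and the dissected TLS came from the same kidneys as the kidney tissue of mice H6, H20 and H115.

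Members were matched to RefSeq promoters by symbol, and 4 of the 6 (Nphs1, Ptpro, Clic5 and Vegfa) had an entry, Vegfa with 2 starts, of which the upstream one is used here. The 250 bases before the RefSeq start are shown for Clic5 and Vegfa, because these were the members with an entry whose reads were numerous enough to be tested and were higher in kidney than in lymph node. Both lie on chromosome 17 of GRCm38.p6, Clic5 on the plus strand at chr17:44188322-44188571 and Vegfa on the minus strand at chr17:46032378-46032627. Capitals mark the GC box letters GGGCGG on either strand.
Clic5: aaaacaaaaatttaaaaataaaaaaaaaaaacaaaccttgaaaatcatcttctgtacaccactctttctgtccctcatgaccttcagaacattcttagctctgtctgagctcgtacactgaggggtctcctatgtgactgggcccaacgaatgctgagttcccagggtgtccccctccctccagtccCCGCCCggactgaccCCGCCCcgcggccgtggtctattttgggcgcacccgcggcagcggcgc
Vegfa: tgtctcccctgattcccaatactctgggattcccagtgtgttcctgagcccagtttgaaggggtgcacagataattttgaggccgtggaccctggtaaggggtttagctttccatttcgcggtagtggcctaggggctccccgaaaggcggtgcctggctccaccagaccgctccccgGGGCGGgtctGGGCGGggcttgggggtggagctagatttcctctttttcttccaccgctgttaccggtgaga
Each window held 2 such matches that did not overlap, beginning 63 and 48 bases before the start in Clic5 and 72 and 62 bases before it in Vegfa. At least 1 match was present in 32.7% of 32851 RefSeq windows of the same length, so the letters are common. Neither window held TATAAA on either strand, which 12.4% of the 32851 windows held. The windows of Nphs1 and Ptpro held no GGGCGG. A match is a description of letters and not of a bound site.

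The libraries were shallow, with 343825 to 443379 reads each, so the podocyte genes were counted in few reads. Each deposited value holds the reads of a gene with 1 read added, scaled by a size factor for the library, and the reads were recovered from it. Normalized reads are given below as reads divided by the size factor, without the added read. A count of 3 reads, the limit that a count of 0 allows, was worth 2.36 to 5.32 normalized reads in a single library. Ribosomal RNA took 55.6% of the reads of the kidney of mouse H117, 31.8% of the lymph node of mouse H6 and 21.3% of the TLS of mouse H115, and at most 5.33% of any other library, which left fewer reads for other genes in those 3 libraries. In bulk tissue, fewer podocytes and less RNA per podocyte cannot be told apart.

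Podocyte gene reads were most numerous in kidney and fewer in TLS. The 6 genes together had 126, 103, 97 and 56 reads in the kidneys of mice H6, H20, H115 and H117, 39, 54 and 31 reads in the TLS of mice H6, H20 and H115, and 4, 25 and 17 reads in the lymph nodes of mice H6, H20 and H117. After scaling, the sum was 86.9 to 112 normalized reads in kidney, 33.1 to 42.4 in TLS and 5.80 to 23.7 in the lymph nodes of proteinuric mice. The TLS sum was 32.3%, 41.4% and 33.0% of the kidney mean in mice H6, H20 and H115. Kidney and TLS libraries did not overlap in this sum. Podxl and Vegfa made up most of it, and most lymph node reads were those of Vegfa.

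**Figure D1:**
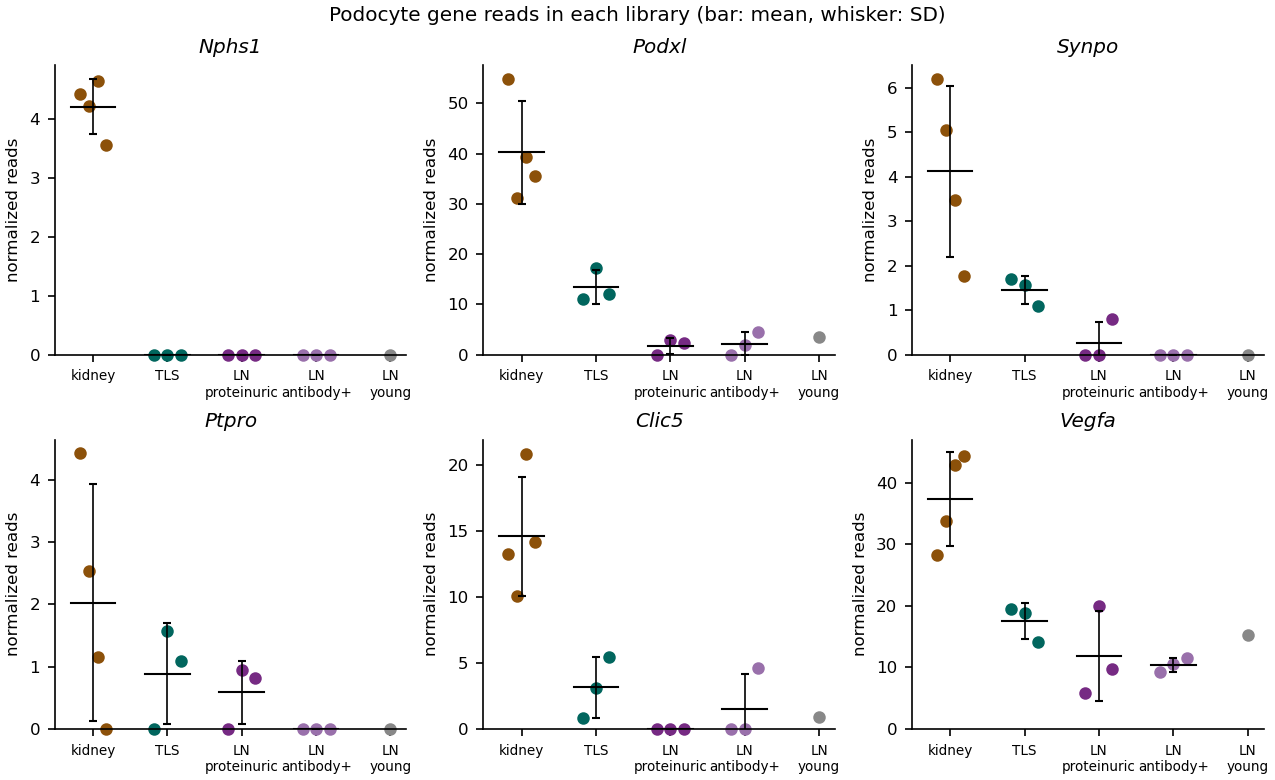
Normalized reads (vertical axis, linear from 0, a separate scale in each panel) of the 6 podocyte genes in 4 kidney, 3 TLS, 3 proteinuric lymph node, 3 antibody-positive lymph node and 1 young lymph node libraries. Each point is a library, bars are means and whiskers SD. Nphs1 was seen in kidney libraries only, and for Ptpro the kidney and TLS points overlap.

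Nphs1 (ENSMUSG00000006649, chr7:30458315-30487223, plus strand, GRCm38) was read in kidney alone. It had 5, 5, 4 and 2 reads in the kidneys of mice H6, H20, H115 and H117, and 0 reads in each of the 3 TLS and 7 lymph node libraries. All 4 kidney libraries therefore stood above all other libraries. The kidney mean was 4.21 ± 0.47 normalized reads (SD, n = 4). Against the floor of 3 reads over the 3 TLS libraries, kidney was at least 4.72-fold higher than TLS, and the count of 0 allowed a TLS share of up to 21.2% of the kidney mean. This floor takes the kidney mean as exact, and with the counting error of the 16 kidney reads included the TLS share could be up to 28.8%. Against the same floor over the 7 lymph node libraries, kidney was at least 9.96-fold higher, and with the counting error included the lymph node share could be up to 13.7%. The antisense gene Nphs1os overlaps Nphs1 in the annotation, and whether the counting used strand is not given in the sources used here.

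Podxl (ENSMUSG00000025608, chr6:31519488-31563981, minus strand) had the most reads of the 6 genes in kidney. Its counts were 62, 37, 34 and 20 in the kidneys of mice H6, H20, H115 and H117, and 13, 22 and 11 in the TLS of mice H6, H20 and H115. Lymph nodes of proteinuric mice had 0, 3 and 3 reads (mice H6, H20 and H117), antibody-positive nodes 0, 2 and 4, and the young node 4. The 3 tissues of proteinuric mice formed separate ranges. In normalized reads the lowest kidney library was at 31.2, TLS lay between 11.02 and 17.3, and the highest of all lymph node libraries was at 4.59. Means were 40.2 ± 10.3 in kidney (SD, n = 4), 13.4 ± 3.37 in TLS (n = 3) and 1.76 ± 1.54 in proteinuric lymph node (n = 3).

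Clic5 (ENSMUSG00000023959, chr17:44188584-44280172, plus strand) showed the same order of tissues at a lower level. Kidneys had 15, 12, 18 and 8 reads in mice H6, H20, H115 and H117. In TLS the counts were 1, 4 and 5 in mice H6, H20 and H115, all below the kidney libraries after scaling. No read was counted in the 3 lymph nodes of proteinuric mice, and 1 of the 3 antibody-positive nodes had 4 reads while the rest had 0. The young node had 1 read. The means were 14.6 ± 4.52 normalized reads in kidney and 3.15 ± 2.30 in TLS. Kidney was at least 14.5-fold higher, and TLS at least 3.13-fold higher, than the floor over the 3 proteinuric lymph node libraries. These bounds take the kidney and TLS means as exact. With counting error included, the share of these lymph nodes could be up to 9.05% of the kidney value. The antibody-positive node with 4 reads, at 4.59 normalized reads, lay within the range of TLS. The TLS library of mouse H6, with its single read, was itself below the 3 reads that a count of 0 allows.

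Vegfa (ENSMUSG00000023951, chr17:46016993-46032369, minus strand) was the one member with reads in every library. It had 32, 40, 37 and 25 reads in the kidneys of mice H6, H20, H115 and H117 and 23, 24 and 13 reads in the TLS of mice H6, H20 and H115. The lymph nodes had 4, 21 and 12 reads in proteinuric mice H6, H20 and H117, 10, 11 and 10 in antibody-positive mice, and 17 in the young mouse. Kidney libraries, at 28.3 to 44.4 normalized reads, lay above all others, whereas TLS (14.2 to 19.5) overlapped the lymph nodes of proteinuric mice (5.80 to 19.9). Means were 37.3 ± 7.64 in kidney, 17.5 ± 2.91 in TLS and 11.8 ± 7.28 in proteinuric lymph node.

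Synpo (ENSMUSG00000043079, chr18:60593973-60660142, minus strand) was counted in 7, 6, 3 and 1 reads in the kidneys of mice H6, H20, H115 and H117 and in 2, 2 and 1 reads in the TLS of mice H6, H20 and H115. Of the 7 lymph node libraries, 1 had a read. The lowest kidney library, that of mouse H117, was at 1.77 normalized reads from its single read and the highest TLS library at 1.70, so the ranges of kidney and TLS were apart by less than the worth of 1 read. Means were 4.13 ± 1.92 in kidney and 1.45 ± 0.32 in TLS.

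Ptpro (ENSMUSG00000030223, chr6:137252319-137463233, plus strand) was the sparsest member. Kidneys had 5, 3, 1 and 0 reads in mice H6, H20, H115 and H117, TLS 0, 2 and 1 in mice H6, H20 and H115, and 2 of the 7 lymph node libraries had 1 read each. Kidney and TLS overlapped, and no difference was detectable at this depth. Means were 2.03 ± 1.90 normalized reads in kidney and 0.887 ± 0.805 in TLS. A gene annotated inside an intron of Ptpro on the same strand, Gm44258, could share reads with it.

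Levels of different genes were compared per length, as normalized reads per kilobase of annotated exon in kidney. Vegfa (8.71 ± 1.78, SD, n = 4) and Podxl (7.33 ± 1.87) led and did not differ beyond their spread. Clic5 followed at 1.66 ± 0.51, below Podxl and above the rest. Nphs1 was at 0.635 ± 0.071, Synpo at 0.433 ± 0.202 and Ptpro at 0.302 ± 0.283, and each of these differed from its neighbour in the order by about their spread or less. The exon length counts every annotated exon of a gene, so a gene with long exons that are rarely used is understated.

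The TLS share of the kidney value was the mean of the 3 TLS libraries as a percent of the mean of the 4 kidney libraries. It was 33.4% for Podxl, with a 95% counting interval of 23.5% to 46.7%, and 46.9% for Vegfa (36.1% to 67.9%). For Clic5 it was 21.5% (9.51% to 41.6%). These intervals are exact binomial intervals on the pooled reads and cover counting error only. They lie below 100% for all 3 genes, and those of Podxl, Clic5 and Vegfa overlap one another.

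For the sparser members the share was poorly fixed. Synpo had a TLS share of 35.2% with an interval of 9.43% to 92.3%, and Ptpro one of 43.8% with an interval of 6.45% to 148%, which includes 100%. Nphs1 had a share of 0%, with the upper bound of 28.8% given above. The median share of the 6 members was 34.3%, beside a median of 99.3% over the 7195 tested genes with a kidney read (quartiles 65.4% and 151%). These medians come from unlike sets. The 7195 genes had passed a filter on the mean value, given below, that Nphs1, Synpo and Ptpro did not pass.

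Shares in single TLS libraries rested on few reads. The TLS of mouse H6 had the lowest share of Clic5, 5.80% of the kidney mean, and the highest share of Vegfa, 52.3%. The TLS of mouse H115 had the highest share of Clic5, 37.3%, and the lowest of Vegfa, 38.0%. For Podxl the highest share was in mouse H20, at 43.0%, beside 27.4% in mouse H6 and 29.8% in mouse H115. Differences between single TLS libraries were not tested, and overlap of intervals is no such test. Against the kidney of the same mouse the counting intervals of mice H6 and H115 overlapped for Clic5 (0.152% to 41.6% and 7.58% to 73.0%) and for Vegfa (38.5% to 122% and 16.1% to 63.6%). Those of Podxl in mice H6 and H20 overlapped less, at 10.1% to 37.0% and 31.1% to 96.4%.

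Against the kidney of the same mouse, the Podxl share was 20.1%, 55.4% and 30.4% in mice H6, H20 and H115. Vegfa had shares of 68.9%, 55.9% and 33.1% and Clic5 shares of 6.39%, 31.1% and 26.1% in the same mice. All of these were below 100%. The share of all genes that were below their own kidney in 3 of 3 mice was not counted, so this is a description only. The counting interval of Vegfa in mouse H6 reached 122%, and that of Clic5 in mouse H20 reached 102%. The other 7 of these 9 intervals ended below 100%.

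**Figure D2:**
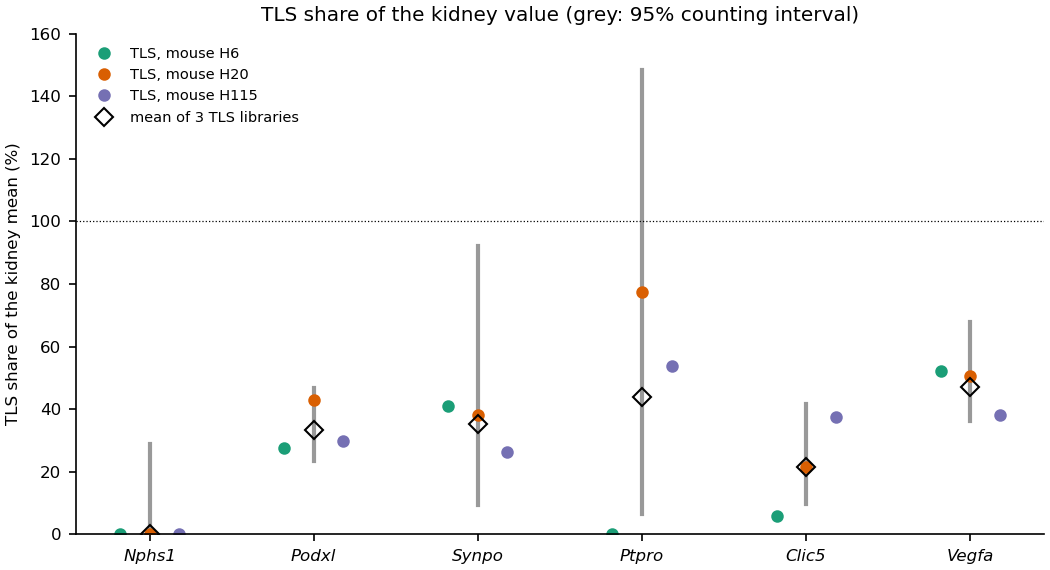
TLS share of the kidney mean in percent (vertical axis) for each podocyte gene. Points are the TLS libraries of mice H6, H20 and H115, open diamonds the mean of the 3 and grey lines the 95% counting interval. The lines of Podxl, Clic5, Vegfa, Nphs1 and Synpo end below 100%, and the line of Ptpro crosses it.

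The tissues were compared with limma on log2(value + 1) across all genes whose mean value reached 5 in the 10 libraries of proteinuric mice. Podxl, Clic5 and Vegfa passed this filter, and Nphs1, Synpo and Ptpro did not, so that for the latter the values come from a fit without the filter. DE genes were those with an adjusted p (Benjamini-Hochberg) below 0.05. Fold changes on this scale understate the change of low genes.

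Kidney against TLS asks which podocyte genes were lower in the dissected aggregates. Podxl was 2.75-fold higher in kidney (log2 fold change 1.46 ± 0.32, SE, adjusted p = 0.00945) and Clic5 3.51-fold higher (1.81 ± 0.39, adjusted p = 0.0081). Clic5 passed the filter through its kidney values, the tissue where it was highest. In the limma fit without the filter it was called as well (adjusted p = 0.00786). Vegfa, at a log2 fold change of 1.01 ± 0.36, did not pass the threshold (adjusted p = 0.0787), although its kidney and TLS libraries did not overlap. Of the 7382 genes tested, 6.07% were DE with a higher value in kidney and 8.62% with a higher value in TLS. These were 448 and 636 genes, and edgeR with TMM scaling, under which the median gene moved by -0.12 on the log2 scale, called 170 and 662, Podxl and Clic5 among the former. Without the TLS library of mouse H6, the log2 fold change of Podxl was 1.34 with an adjusted p of 0.0522. Without the kidney of mouse H117, the library with the most ribosomal RNA, Podxl (adjusted p = 0.0177) and Clic5 (1.79, adjusted p = 0.0289) were still DE.

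In the fit of all 13982 genes without a filter, Nphs1 was DE with a log2 fold change of 1.74 ± 0.26 (adjusted p = 0.000755), a value that depends on the added read because all TLS libraries were at 0. Synpo had a log2 fold change of 0.87 ± 0.30 (adjusted p = 0.0998) and Ptpro one of 0.56 ± 0.34 (adjusted p = 0.394), and neither passed. In that fit 3 of the 6 members were DE with a higher value in kidney, beside 3.57% of all genes. Each kidney library stood above each TLS library for 5 of the 6 members, beside 7.53% of all genes, and the exception was Ptpro.

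Kidney against lymph node compares the organ with a tissue that holds no podocytes. Podxl was 11.3-fold higher in kidney (log2 fold change 3.498 ± 0.323, adjusted p = 3.88e-06) and Vegfa 3.05-fold higher (1.61 ± 0.36, adjusted p = 0.00274). Clic5 was also DE (adjusted p = 5.41e-05), and its fold is given above as a bound because the lymph nodes had no read. It passed the filter through its kidney values, and the limma fit without the filter called it too (adjusted p = 2.86e-05). Among all tested genes 23.0% were DE with a higher value in kidney, so a call in this direction was common. Without the filter, Nphs1 (adjusted p = 0.000217) and Synpo (1.41 ± 0.30, adjusted p = 0.00235) were DE as well and Ptpro was not (0.59 ± 0.34, adjusted p = 0.206). That made 5 of the 6 members beside 15.6% of all genes.

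TLS against lymph node asks whether the podocyte gene reads left in TLS exceeded those of a lymphoid organ. Podxl did, with a 4.11-fold higher value in TLS (log2 fold change 2.04 ± 0.35, adjusted p = 0.00198), where 8.87% of tested genes were DE with a higher value in TLS and 1.69% with a higher value in lymph node. Vegfa did not pass (0.60 ± 0.38, adjusted p = 0.39). Clic5 had a log2 fold change of 1.18 ± 0.42 and did not pass in limma (adjusted p = 0.101), whereas 3 count tests on the recovered reads called it, with adjusted p of 0.0371 and 0.0481 in edgeR's quasi-likelihood test with TMM and with DESeq2 size factors and 0.0412 in DESeq2. Clic5 entered this comparison through its kidney values, and with only TLS and lymph node fitted it did not pass the filter, so these calls are given as values and not as support. In the other limma fits its adjusted p ranged from 0.021 without the TLS library of mouse H6 to 0.387 without that of mouse H115, and was 0.303 with mouse as block. In the fit without a filter Podxl was the single member called of 6, beside 5.00% of all genes. The comparisons with kidney, TLS and lymph node share libraries and are not independent of one another.

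**Figure D3:**
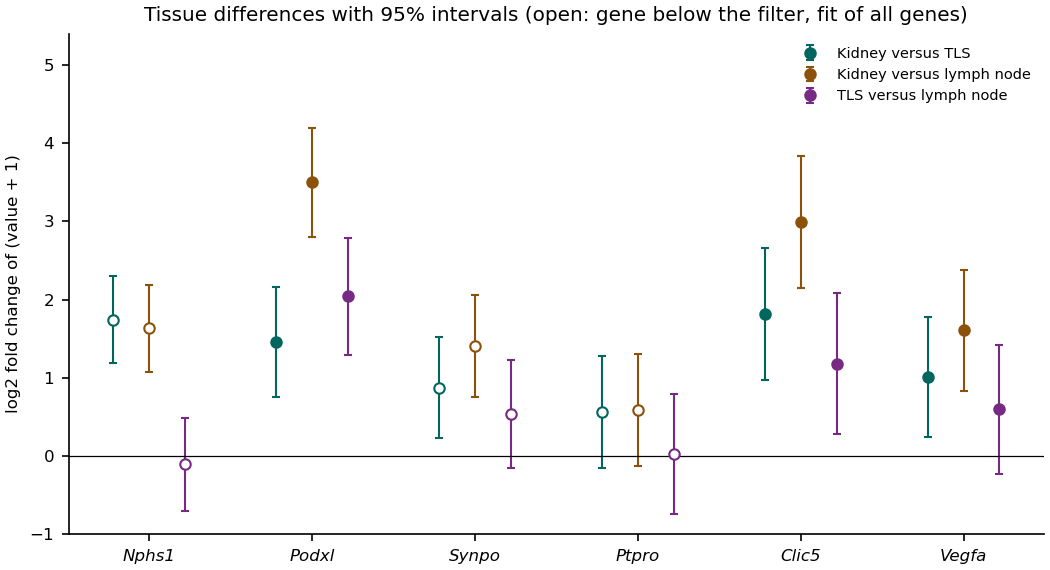
Log2 fold changes on log2(value + 1) (vertical axis) with 95% intervals from limma for each podocyte gene in 3 comparisons, positive where the tissue named first is higher. Filled points are genes that passed the filter and open points come from the fit without it. Podxl is above 0 in all 3 comparisons, and the intervals of Ptpro include 0 in each.

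Lymph nodes of antibody-positive and proteinuric mice were compared in a fit of their own, in which Vegfa was the one member that passed the filter. Its log2 fold change was -0.04 ± 0.38 (95% interval -0.92 to 0.83, adjusted p = 0.998), with means of 10.4 ± 1.10 normalized reads in antibody-positive and 11.8 ± 7.28 in proteinuric nodes. Differences within this interval were not detectable at this depth. limma called 0 of 6810 genes in this comparison, with 215 at an unadjusted p under 0.05, while edgeR called 0 and DESeq2 13. Kit and group cannot be told apart here.

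The spread between the 4 kidney libraries was close to what counting alone gives for most members. The coefficient of variation was 20.5% for Vegfa, beside 17.3% from counting, and 30.9% for Clic5, beside 27.8%, and that of Clic5 was 17.0% without the kidney of mouse H115 and 17.3% when scaled on reads outside rRNA. Synpo varied by 46.6%, beside 55.8%, and Ptpro by 93.8%, beside 82.6%. Without the kidney of mouse H117 these were 27.8% for Synpo and 60.6% for Ptpro. With the deposited size factors, Podxl was the member with the largest ratio of these values, 25.6% beside 17.2%. With TMM scaling the coefficient of variation was 28.2% for Vegfa and 23.2% for Podxl, so this ranking depends on the scaling. For Podxl the kidney of mouse H6, at 54.8 normalized reads, stood above the other 3 at 31.2 to 39.4. Without that kidney the coefficient of variation of Podxl was 11.6%. Genes with a kidney mean within 1.5-fold of that of Podxl had a median of 33.8%, so its spread was not large for its level.

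Nphs1 varied by only 11.2% between kidneys, against the 53.1% that counting would give at 2 to 5 reads, so its evenness is no measure of precision, and it varied by 4.73% without the kidney of mouse H117. Genes with a kidney mean within 1.5-fold of that of Nphs1 had a median coefficient of variation of 51.9%. The highest kidney library exceeded the lowest 1.31-fold for Nphs1, 1.57-fold for Vegfa, 1.76-fold for Podxl, 2.06-fold for Clic5 and 3.49-fold for Synpo. The members did not rank the kidneys alike. The kidney of mouse H6 was highest for Podxl, Synpo and Ptpro and lowest for Vegfa, and that of mouse H117 was highest for Vegfa and lowest for Nphs1, Synpo and Ptpro.

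**Figure D4:**
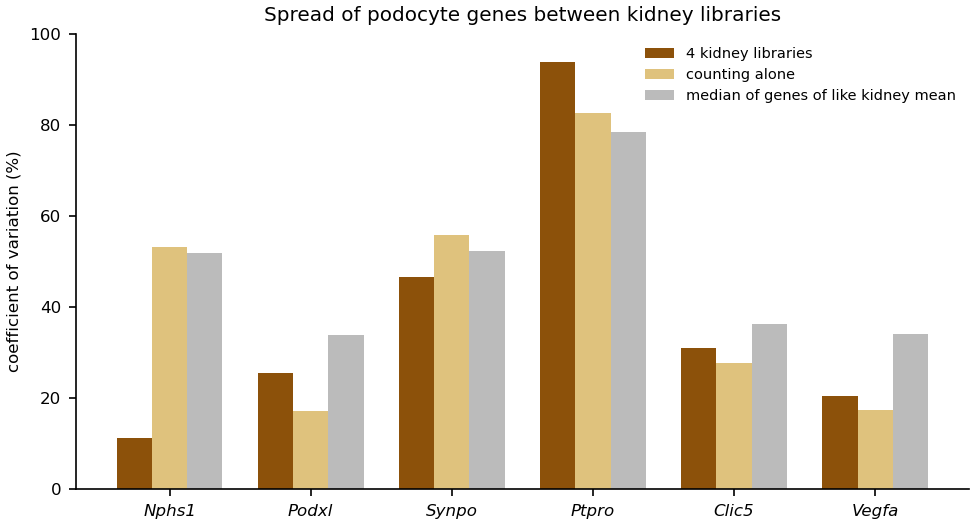
Coefficient of variation in percent (vertical axis) of the 4 kidney libraries for each podocyte gene, beside the value from counting alone and the median of genes whose kidney mean was within 1.5-fold. Podxl stands above its counting value, 25.6% against 17.2%, and Nphs1 below it, 11.2% against 53.1%. Both lie below the median of genes of like kidney mean, 33.8% for Podxl and 51.9% for Nphs1.

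Other glomerular genes were read from lists of slit diaphragm, foot process, podocyte transcription factor, other podocyte, basement membrane, VEGF and mesangial or parietal genes. Of 54 such genes 45 had a row and 30 were tested. Between kidney and TLS 4 were DE with a higher value in kidney and 0 with a higher value in TLS, beside 6.07% and 8.62% of all genes tested, and the median log2 fold change was 0.32 beside 0.01. The 4 were Npnt, Enpep, Sema3g and Col4a3. Sema3g and Col4a3 passed the filter through their kidney values, the tissue where they were highest. The counts of calls between kidney and TLS in these lists are therefore given as values and not as support.

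In the slit diaphragm list 0 of 2 tested genes were DE between kidney and TLS. Cd2ap, an adaptor that joins the slit diaphragm to actin and is also found in lymphocytes, had a share of 90.3%, and the FAT cadherin Fat1 one of 77.3% (adjusted p = 0.955 and 0.761). Tjp1, a tight junction scaffold, had 20 reads over the 4 kidneys and 15 over the 3 TLS libraries and did not pass the filter.

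None of the 6 tested foot process genes was DE between kidney and TLS. Actn4 (an actin crosslinker), Ezr (ezrin, which ties membrane proteins to actin) and Slc9a3r2 (a scaffold that binds podocalyxin) had TLS shares of 90.8%, 73.5% and 51.8%. Myo1e (a class I myosin) and Inf2 (an actin-nucleating formin) had shares above 100%, of 148% and 183% (adjusted p = 0.402 and 0.62). Arhgap24 had a share of 54.5% (adjusted p = 0.0804). Rhpn1 had 25 reads over the kidneys and 1 over the TLS libraries, and Nes had 28 and 9. Rhpn1 and Nes were not tested. Actn4, Ezr, Slc9a3r2, Myo1e and Inf2 also had reads in lymph node, and the means of Myo1e and Inf2 were highest there. The transcription factor Tcf21 had a share of 203% without passing the test (adjusted p = 0.469), and Foxc1 had 1 read in kidney and 4 in TLS.

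Of the other podocyte genes 3 of 7 were DE with a higher value in kidney, beside the 6.07% of all genes. Enpep (aminopeptidase A, also made by proximal tubule) had a TLS share of 29.5% and Npnt (nephronectin, a matrix ligand of integrins) one of 47.0%, with log2 fold changes of 1.63 ± 0.35 and 1.06 ± 0.30 (adjusted p = 0.0082 and 0.0327). Sema3g, a secreted semaphorin, had a log2 fold change of 1.14 ± 0.32 (adjusted p = 0.0298). It passed the filter through its kidney values, with means of 10.2 normalized reads in kidney, 3.53 in TLS and 0.586 in proteinuric lymph node. Cdkn1c, a cell cycle inhibitor of mature podocytes, had a share of 59.2% and did not pass (adjusted p = 0.147). Pdpn (podoplanin, a glycoprotein also made by lymphatic endothelium and stromal cells) had a TLS share of 246%, with 23 reads over the kidneys and 43 over the TLS libraries, and did not pass either (log2 fold change -1.15, adjusted p = 0.100).

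In the basement membrane list 1 of 7 tested genes was DE with a higher value in kidney, beside 6.07% of all genes tested. Col4a3, a collagen IV chain of the mature glomerular basement membrane that is also present in some tubules, had a share of 33.2% and a log2 fold change of 1.40 ± 0.42 (adjusted p = 0.044). It passed the filter through its kidney values, the tissue where it was highest. Agrn (agrin) and Nid1 (nidogen) had shares of 67.4% and 89.0%. Nid1 had between 0 and 33 reads in single kidneys.

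The partners of Vegfa did not pass the test between kidney and TLS. Its receptors Kdr and Flt1 had 19 and 6 reads over the 4 kidneys and 6 and 5 over the 3 TLS libraries, and Kdr had an adjusted p of 0.123 while Flt1 was not tested. The coreceptor Nrp1 had a TLS share of 82.9% and the related ligand Vegfb one of 47.4% (adjusted p = 0.777 and 0.103). In the mesangial and parietal list 0 of 4 tested genes were DE, and the named genes Pdgfrb, Cldn1 and Pax8 had shares of 67.2%, 39.4% and 81.2%. Des had one of 139% (adjusted p = 0.646), and Gata3, a transcription factor also of T cells, had 0 reads in kidney and 14 in TLS and was not tested.

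Between kidney and lymph node 19 of the 30 glomerular genes were DE with a higher value in kidney and 2 with a higher value in lymph node, beside 23.0% and 20.8% of all genes tested. The 2 were Inf2 and Des (desmin, an intermediate filament of muscle). The median log2 fold change was 1.63, beside -0.05 over all genes tested, and was 1.63 as well with the 11 genes without a lymph node read set at their bound. Between TLS and lymph node 12 of the 30 were DE with a higher value in TLS and 0 with a lower value, beside 8.87% and 1.69% of all genes. The 11 genes without a lymph node read passed the filter through kidney or TLS alone. The counts against lymph node are therefore given as values and not as support.

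The TLS libraries also held other cell types of the kidney. The marker sums that lay below the kidney mean in each TLS library, like the podocyte genes, are given here. The 6 proximal tubule markers summed to 7.51%, 33.1% and 58.9% of the kidney mean in the TLS of mice H6, H20 and H115, the 3 thick ascending limb markers to 46.8%, 38.5% and 89.0%, and the 2 distal convoluted tubule markers to 15.4%, 14.9% and 30.6%. Kap, a kidney androgen-regulated protein, made up 93.3% of the proximal tubule sum in kidney, and the other 5 markers summed to 8.24%, 16.3% and 39.4% in the same order of mice. The podocyte genes together were at 32.3% to 41.4%. They were highest in mouse H20, whereas each of these marker sums was highest in mouse H115. All 6 proximal tubule markers were read in TLS, and 5 of them were at 0 in the lymph nodes of proteinuric mice. Their part in the podocyte gene values of TLS was not tested.

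Endothelium and mesothelium also make Podxl, and their markers are given for that reason. The 7 endothelial markers summed to 55.0 to 166 normalized reads in kidney and 85.0 to 125 in TLS, or 110%, 103% and 74.5% of the kidney mean in mice H6, H20 and H115, and 0 of 6 tested were DE between kidney and TLS. In lymph nodes of proteinuric mice they summed to 92.7 to 188 normalized reads. The list was uneven there, with means of 61.7 for Plvap and 44.6 for Pecam1, but 1 read of Emcn and 0 of Tek. Podxl had at most 2.84 normalized reads in these nodes. Mesothelial Msln and Upk3b summed to 7.07 to 39.0 normalized reads in TLS and 0 to 0.843 in kidney, with Upk3b at 0 in kidney. The part of endothelium and mesothelium in the Podxl reads of TLS was not tested.

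B-cell markers summed to 306 to 438 normalized reads in TLS, 0 to 21.1 in kidney and 565 to 810 in proteinuric lymph node, the opposite order to that of the podocyte genes. T-cell markers summed to 94.9 to 156 in TLS, 0 to 9.28 in kidney and 264 to 330 in lymph node. Macrophage markers reached 655 to 1139 in TLS and 112 to 462 in kidney. Urothelial markers reached 133 to 746 in TLS and 0 to 22.02 in kidney. Of these, 5 of 5 tested were DE with a higher value in TLS, beside 8.62% of all genes tested. They passed the filter through TLS, where they were high. Collecting duct markers were at 63.2 to 192 in TLS and 56.8 to 146 in kidney, and 0 of 3 tested were DE. Smooth muscle and pericyte markers ranged from 10.6 to 335 in kidney and from 142 to 186 in TLS. The adipocyte markers were at 0 in all kidneys and reached 171 in the TLS of mouse H20.

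**Figure D5:**
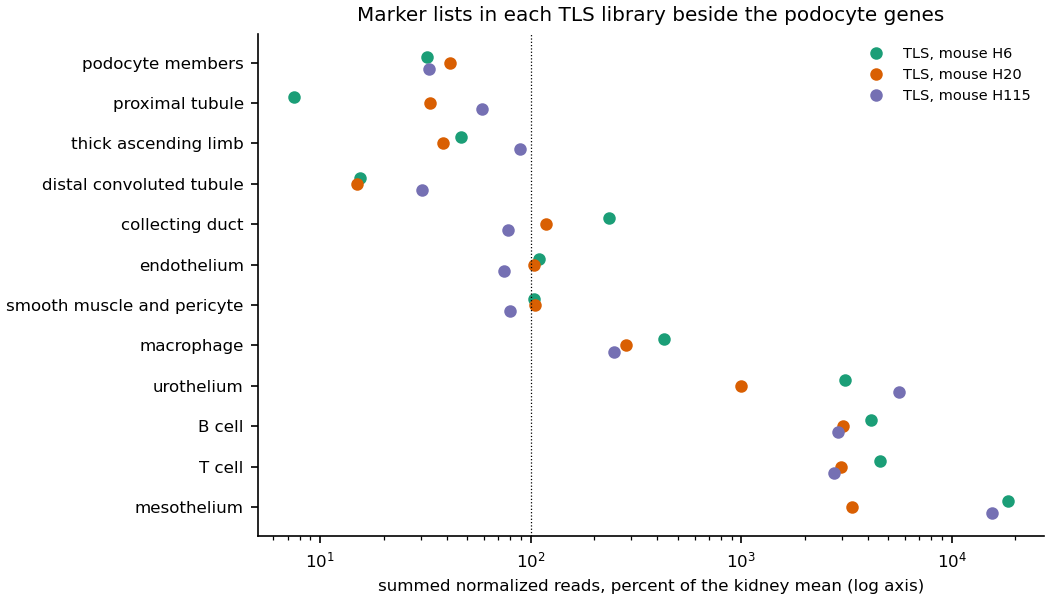
Summed normalized reads of each list in the TLS of mice H6, H20 and H115, as a percent of the kidney mean (horizontal axis, log scale). The podocyte genes lie at 32.3% to 41.4%, on the same side of 100% as the proximal tubule, thick ascending limb and distal convoluted tubule markers, while B-cell, T-cell, macrophage, urothelial and mesothelial markers lie above 100%.

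The genes whose pattern over the 14 libraries was most like that of Nphs1, by Pearson's r of log2(value + 1) among 7382 genes, were Lrrc19 (r = 0.96), Slc26a1 (0.95), Fgfr4 (0.95), Nat8 (0.95) and Smlr1 (0.94). These had at most 4 reads in any TLS library and 0 in every lymph node. Clic5 came 105th with r = 0.87, Vegfa 543rd with 0.80 and Podxl 642nd with 0.79. The points share libraries and size factors, and 10 of the 14 libraries hold no Nphs1 read, so that r mostly measures kidney against the rest.

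Those most like Podxl were Idh1 (r = 0.98), Snx7 (0.98), Fhl1 (0.98), Cryz (0.97) and Parva (0.97). Their TLS shares were 40.2%, 28.6%, 31.9%, 29.9% and 63.5%, beside 33.4% for Podxl. Clic5 and Vegfa correlated with Podxl at 0.90 and 0.89 and ranked 556th and 589th. Many genes followed this order of kidney, TLS and lymph node.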

How the data were processed

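Poly(A) RNA of 14 NZB/W mouse libraries was sequenced by the authors on an Ion Torrent PGM and mapped and counted in CLC Genomics Workbench 8 against GRCm38 (release 80). The deposited signal is (reads + 1) divided by a DESeq size factor, and all values times the factor were whole within 1e-06 (100%). Reads were recovered from it.

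limma 3.58.1 (trend, robust) in R 4.3.3 was fitted on log2(value + 1), pseudocount 1, over 10 libraries of proteinuric mice (7382 genes) and separately over 6 lymph nodes (6810 genes). Count tests on recovered reads (edgeR 4.0.16 and DESeq2 1.42.0), other filters, pseudocounts, scalings, mouse as block and leaving out each library were the alternatives. Positions and exon lengths are from GENCODE M21 and promoters from RefSeq. Kidney and TLS of the same mouse came from the same kidney, and their deviations from the tissue means correlated at 0.35, 0.36 and 0.45 in mice H6, H20 and H115. Those of kidney and TLS from different mice correlated at -0.498 to 0.361. Kidney and lymph node of the same mouse were at -0.326, 0.202 and -0.335 in mice H6, H20 and H117.

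The genes named were the members, the 3 genes with the largest kidney mean in each glomerular list, Kdr, Flt1, Nrp1 and the 5 genes most like Nphs1 and Podxl. Sema3g, Inf2, Des, Myo1e, Arhgap24, Rhpn1, Nes, Pdpn, Gata3 and Kap were named after their values were seen. Some genes that the rule names are not reported here, and counts of the lists leave them out. Members and lists were chosen with earlier results of these data known. All 4 kidney libraries were kept. Whole-kidney samples were not analysed here.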

Additional observations from a re-analysis of the deposited data

Results flagged for a closer look

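The lymph node library labelled young was in no comparison and held reads of 2 members above the 3 reads that a count of 0 allows. Podxl had 4 reads there, and Vegfa had 17, or 15.2 normalized reads, within the range of 5.80 to 19.9 of the other lymph node libraries. No member had a kidney library far enough from the other 3 to be singled out by Dixon's test.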

How the results depend on the processing

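The number of members DE between kidney and TLS was 2, and 1 with a minimum mean of 10, which leaves out Clic5. Leaving out libraries gave 1 to 2, and the 1 was without the TLS of mouse H6. Between kidney and lymph node the number was 3, 5 without a filter, and 3 in each fit that left out a library. Between TLS and lymph node it was 1, and 2 in both edgeR tests and in DESeq2, with 1 to 2 when libraries were left out. The mouse as a replicate block changed none of these numbers (2, 3 and 1). No paired analysis was possible for antibody-positive nodes because they came from other mice. That comparison gave 0 in all 15 alternatives. The median TLS share of 34.3% ranged from 27.7% to 40.1%, with 30.7% within mice, and the median coefficient of variation of 28.2% from 24.7% to 28.6%. With the added read kept, the TLS share was 16.9% for Nphs1 and 44.6% for Synpo. No fold change of a member that passed a test changed sign. Depth limits Nphs1, Synpo and Ptpro most, with 16, 17 and 9 kidney reads. Over all genes, 1084 were DE between kidney and TLS, 530 without the TLS of mouse H6 and 692 without the kidney of mouse H115. Between TLS and lymph node 780 were DE, 518 with only these 2 tissues fitted, 481 without the TLS of mouse H115 and 480 without the lymph node of mouse H117. Between the groups of lymph nodes DESeq2 called 13 genes, the fit without a filter 8 and the fit without the second antibody-positive node 5.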
